A study of Mus musculus with 72 samples.

Results

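The retinoid metabolism genes described here are 9 named genes that carry, store, make, break down or sense vitamin A: *Rbp4*, *Stra6*, *Lrat*, *Dhrs3*, *Aldh1a1*, *Aldh1a2*, *Cyp26a1*, *Cyp26b1* and *Rarb*. They were taken by name, as every non-control mRNA probe whose transcript accession maps to 1 of them, which gave 12 of the 56605 probes on the array and 9 of the 23787 genes that the probes with a RefSeq name (34566 of them) stand for. The list was chosen by name with earlier results of these data known, and the measured value known to have entered the choice is the low *Cyp26b1* level in liver at 1 Gy against 0 Gy. For that reason the *Cyp26b1* values in liver, and each dose against 0 Gy and 12 against 1 Gy in liver for all 9 genes, are given as descriptions, with an interval and no test. Linear dose trends of the other 8 genes in liver, all lung comparisons and the differences between tissues were tested.

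Female C57BL/6 J mice, 6 to 8 weeks old and otherwise unmodified, were sham exposed (0 Gy) or received X-rays over the whole body once, at 1.05 Gy/min, to 1 of 5 doses (1, 2, 4, 8 and 12 Gy). Liver and lung were taken 48 h later from 3 mice per dose, and each sample was hybridized to its own 1-color array, giving 18 liver and 18 lung arrays. Liver and lung arrays carry the same 18 numbers, which were taken as the same mice although the labels do not say so. The numbers are 1, 11 and 21 at 0 Gy, 2, 12 and 22 at 1 Gy, 3, 13 and 23 at 2 Gy, 4, 14 and 24 at 4 Gy, 5, 15 and 25 at 8 Gy, and 6, 16 and 26 at 12 Gy, and values below follow that order. Whole tissue was used, so fewer cells of a type and less RNA per cell cannot be told apart.

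Retinol travels in blood on a carrier protein, enters cells through a receptor, and is stored as retinyl esters, for which hepatic stellate cells are the main reservoir in the body. Cells that need retinoic acid oxidize retinol first to retinal and then to the acid, which binds nuclear receptors and switches on genes, some of which encode the enzymes that destroy it. Lung uses retinoic acid in forming and maintaining alveoli.

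On each array 59305 spots stood for the 56605 probes, and 46.1% to 54.0% of the spots were well above background on liver arrays against 54.1% to 64.0% on lung arrays, with no saturated spot. The 36 arrays lay on 5 slides, and doses and slides overlap only in part. All liver arrays at 0 and 1 Gy were on slide 1, and those at 4 and 8 Gy on slide 2. All lung arrays at 0 and 1 Gy were on slide 3, and those at 2 and 4 Gy on slide 4. Slide 5 held the 3 lung arrays at 12 Gy and 1 of 8 Gy, and the other lung arrays of 8 Gy were on slide 4. No liver array at 4, 8 or 12 Gy and no lung array above 1 Gy shared a slide with its controls. In lung, slide and dose therefore cannot be told apart where those doses are compared with 0 or 1 Gy. The 4 arrays on slide 5 had 54.1% to 54.8% of spots well above background against 59.2% to 64.0% on the other lung arrays. The tissue labels matched the marker genes, as all 10 hepatocyte markers were lower (median log2 difference -10.22) and all 8 alveolar type 2 cell markers higher (median 8.83) in unirradiated lung than in liver, as were 4 of 5 club cell markers. Levels below are normalized log2 intensities, set within a tissue unless stated, and a level of 1 probe says nothing against that of another. A change was called where the absolute log2 fold change (log2FC) was above 1 and the Benjamini-Hochberg adjusted *p* over all tested probes was below 0.05, as limma gave it.

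Promoters of 3 of the genes are printed because retinoic acid receptors act through short repeats in DNA, and because *Cyp26b1* had the largest difference between doses while *Cyp26a1* and *Rarb* hold a match to such a repeat. Each runs 5′ to 3′ from 250 bases before to 50 bases after the start of the gene in RefSeq (build GRCm38.p6). *Rarb* is at chr14:16575427-16575726 on the minus strand, *Cyp26a1* at chr19:37697558-37697857 on the plus strand, and *Cyp26b1* at chr6:84593761-84594060 on the minus strand. Capitals mark a direct repeat of the receptor half-site, searched on both strands as GGTCA or GTTCA, then 6 bases of any kind, then GGTCA or GTTCA.
Rarb: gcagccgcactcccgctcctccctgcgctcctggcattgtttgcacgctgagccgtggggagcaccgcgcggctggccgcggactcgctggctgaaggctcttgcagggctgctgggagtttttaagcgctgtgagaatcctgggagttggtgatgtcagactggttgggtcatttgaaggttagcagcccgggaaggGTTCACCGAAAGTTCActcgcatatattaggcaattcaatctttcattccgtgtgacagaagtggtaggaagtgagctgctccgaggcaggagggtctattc
Cyp26a1: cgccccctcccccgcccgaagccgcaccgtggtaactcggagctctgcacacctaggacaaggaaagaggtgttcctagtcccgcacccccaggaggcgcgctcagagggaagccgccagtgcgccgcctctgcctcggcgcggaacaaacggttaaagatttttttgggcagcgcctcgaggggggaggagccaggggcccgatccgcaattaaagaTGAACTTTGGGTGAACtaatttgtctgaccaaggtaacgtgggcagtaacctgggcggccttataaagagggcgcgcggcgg
Cyp26b1: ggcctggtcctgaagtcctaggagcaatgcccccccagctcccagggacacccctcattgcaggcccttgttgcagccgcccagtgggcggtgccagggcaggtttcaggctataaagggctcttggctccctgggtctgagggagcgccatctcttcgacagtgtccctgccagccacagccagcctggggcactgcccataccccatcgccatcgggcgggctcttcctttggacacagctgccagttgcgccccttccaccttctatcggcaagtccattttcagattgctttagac
The repeat is in 81 of 32851 promoters of that length (0.247%), and 2 of them belong to these 9 genes, all of which had an entry. In *Rarb* it lies on the printed strand and ends 36 bases before the start site, and in *Cyp26a1* it is read on the opposite strand and ends 16 bases before. The same search with 3 bases in place of 6 found 131 promoters (0.399%) and with 2 bases 132 promoters (0.402%), none of them of these 9 genes. These are matches of letters in a window, not sites shown to be bound.

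*Cyp26b1*, a cytochrome P450 that breaks down retinoic acid, had the largest difference between doses of the set, a low level in both tissues at 1 Gy, with levels at 8 and 12 Gy that overlapped the controls. In liver its log2 level was 8.70, 9.47 and 8.24 at 0 Gy and 5.42, 5.54 and 5.07 at 1 Gy, the last of these not well above background. The 3 mice at 1 Gy were thus far below every other liver array, since the levels at higher doses were 7.57, 9.62 and 7.48 at 2 Gy, 9.11, 8.86 and 8.41 at 4 Gy, 9.56, 9.51 and 7.72 at 8 Gy, and 8.79, 9.19 and 8.90 at 12 Gy. The log2FC at 1 Gy was -3.46 (SE 0.55, 95% confidence interval -4.63 to -2.29), an 11.0-fold lower level. This is the value that entered the choice of the list.

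The lung arrays, on another slide, had the same shape. *Cyp26b1* was at 10.61, 11.50 and 10.46 at 0 Gy and at 7.81, 8.01 and 7.54 at 1 Gy, all well above background. It was at 9.32, 10.43 and 8.87 at 2 Gy, 10.39, 10.42 and 9.98 at 4 Gy, 11.17, 11.48 and 11.03 at 8 Gy, and 10.73, 11.17 and 10.43 at 12 Gy. No 1 Gy mouse overlapped with any mouse at another dose. *Cyp26b1* was downregulated at 1 Gy in lung by 8.42-fold (log2FC -3.07, SE 0.35, limma adjusted *p* = 0.00223), the 10th largest decrease among 43979 probes and the 4th smallest *p*. These lungs were taken as those of the mice whose livers entered the choice, so the lung value is not an independent repeat.

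At 2 Gy in lung, *Cyp26b1* lay below all 3 controls, with a log2FC of -1.32 (SE 0.35) that did not pass (adjusted *p* = 0.155). At 4 Gy too all 3 mice lay below the controls, with a log2FC of -0.59 (adjusted *p* = 0.48). At 8 and 12 Gy the lung log2FC was 0.37 and -0.08, and the liver values at 2, 4, 8 and 12 Gy were -0.58, -0.01, 0.13 and 0.15. Set against 1 Gy rather than the controls, the 12 Gy level was higher by 2.99 (SE 0.35, adjusted *p* = 8.65e-05) in lung and by 3.61 (SE 0.55, 95% confidence interval 2.45 to 4.78) in liver. The change at 1 Gy differed between lung and liver by 0.35, with a 95% confidence interval of -0.96 to 1.66.

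**Figure D1:**
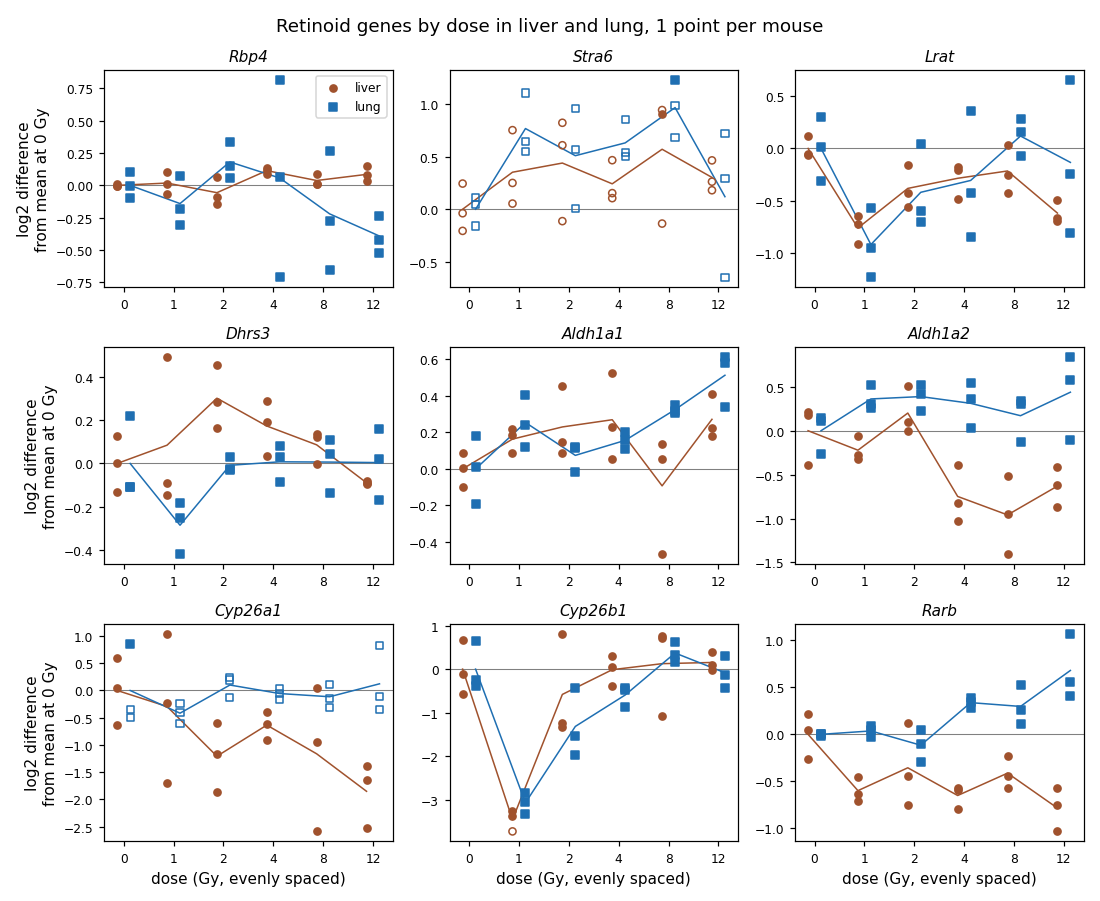
Each panel plots 1 gene as the log2 difference from the mean of the 0 Gy mice of the same tissue, by dose in Gy (evenly spaced), with 1 point per mouse, lines through the group means, and open symbols for arrays where the probe was not well above background. *Cyp26b1* drops in all 3 mice of both tissues at 1 Gy, and the group means of *Rarb* and *Aldh1a2* lie below 0 in liver and above 0 in lung at 4, 8 and 12 Gy.

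Few probes changed at 1 Gy at all. In lung 10 of 43979 probes were called (0.0227%), and *Cyp26b1* was the 1 called gene of the 9. In liver 13 of 38362 probes passed the same rule (0.0339%), *Cyp26b1* among them, from which nothing is read because that value entered the choice. The 0 and 1 Gy lung arrays shared a slide, so the value within the slide was the same, although the fit on that slide alone, with fewer arrays, no longer passed (adjusted *p* = 0.373). Leaving out 1 of the 18 lung arrays kept the call each time (log2FC -3.27 to -2.75). In liver the log2FC stayed between -3.74 and -3.13 when 1 of the 18 arrays was left out, but most of these fits no longer passed the rule. The liver value also did not pass with all probes tested or with slide as a fixed term.

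Numbers with more *Cyp26b1* in liver than the rest of their dose group also had more in lung. If equal numbers are paired, the deviations from the dose mean correlated between tissues at Pearson's *r* = 0.823 over 18 numbers and Spearman's rho = 0.798. The relation was looked for after the values were seen and uses the *Cyp26b1* liver values, so it is given as a description without a test. It did not rest on a few mice, since *r* was 0.818 without mice 13 and 25, which were farthest from the median, and 0.82 without the 3 mice of 1 Gy. The liver and lung arrays of a number never lay on the same slide. Within slides 1 and 3 *r* was 0.971 (6 mice) and within slides 2 and 4 0.848 (6 mice). Across 24747 probes the median *r* was 0.0062, and 99.86% were below that of *Cyp26b1*. Taken over probes rather than over mice, arrays of the same number did not deviate together, as the correlation was above 0.1 for 2 of 18 numbers and 3 of 18 arrays matched their own number best. *Rarb* had *r* = 0.56 (permutation *p* = 0.194 over all 46656 orders within doses, after adjustment over 7 genes). The other 5 genes measured in both tissues lay between -0.08 and 0.27.

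**Figure D2:**
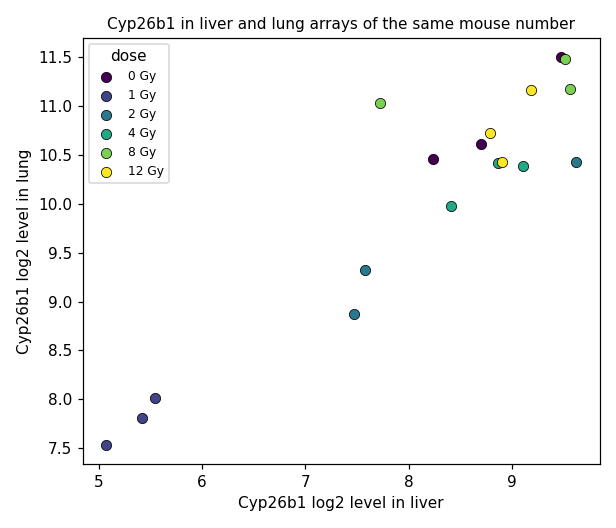
*Cyp26b1* log2 level in liver (x axis) against that in lung (y axis) for the 18 mouse numbers, each tissue normalized on its own, with dose by color. The 3 mice of 1 Gy sit apart at the lower left, and among the rest a mouse high in liver tends to be high in lung (*r* = 0.82 for deviations from the dose mean in 15 mice).

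Markers of other cells were looked at beside the 1 Gy values. Of all probes 0.0339% in liver and 0.0227% in lung were called at 1 Gy, so 0 calls in a short list say little. An unadjusted limma *p* below 0.05 was found for 2713 of 38362 probes in liver and 2427 of 43979 in lung. For hepatic stellate cells 0 of 13 markers were called at 1 Gy in either tissue (0 at an unadjusted limma *p* below 0.05 in liver and 1 in lung), and the log2 of their summed intensity was 15.94 to 16.01 at 0 Gy and 16.00 to 16.07 at 1 Gy in liver, and 16.22 to 16.41 and 16.05 to 16.40 in lung. Of the 7 sinusoidal endothelial, 6 Kupffer cell and 10 hepatocyte markers 0 were called at 1 Gy in liver (1, 2 and 1 at an unadjusted *p* below 0.05). The sums of the first 2 lists did not overlap between doses, being 14.93 to 15.02 at 0 Gy and 14.62 to 14.82 at 1 Gy for sinusoidal endothelium, and 14.95 to 15.19 and 14.74 to 14.81 for Kupffer cells. In liver B cell markers summed to 9.51 to 10.10 at 0 Gy and 9.05 to 9.44 at 1 Gy. In lung, of the 8 lung fibroblast and 6 lung endothelial markers 0 were called at 1 Gy (0 and 0 at an unadjusted *p* below 0.05). Blood cell markers in lung were not called either, but 5 of 8 B cell markers had an unadjusted *p* below 0.05 (median log2FC -0.91), the erythroid sum was 14.31 to 14.47 at 0 Gy and 13.12 to 13.83 at 1 Gy, and the neutrophil sum 14.67 to 14.77 and 15.11 to 15.34. For mesothelium the sum in liver was 10.02 to 10.10 at 0 Gy and 8.54 to 9.96 at 1 Gy, with 0 of 6 markers called but 3 at an unadjusted *p* below 0.05 and a median log2FC of -0.76. In lung the mesothelial sum was 14.81 to 15.01 at 0 Gy and 15.00 to 15.43 at 1 Gy (median log2FC 0.41), and the part of any of these cells in the *Cyp26b1* values was not tested.

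By the likeness of levels over the 18 arrays of a tissue, the genes closest to *Cyp26b1* in liver were *Ada*, which encodes adenosine deaminase (*r* = 0.86), *Cdk1*, the kinase that drives mitosis (*r* = 0.83), and *Slc4a8*, a bicarbonate transporter (*r* = 0.81), among 13790 genes. Without the 1 Gy arrays these fell to 0.66, 0.61 and 0.52. In lung they were *Ucp3*, a mitochondrial uncoupling protein (0.77), *Slc25a33*, a mitochondrial nucleotide carrier (0.76), and *Vsir*, an immune checkpoint receptor (0.72), among 16413 genes, and 0.72, 0.47 and 0.49 without 1 Gy. No gene was on both lists.

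*Cyp26a1*, the other enzyme of the set that clears retinoic acid, had its lowest group mean in liver at 12 Gy, with a dose trend that did not pass the test. Its liver level was 10.61, 11.15 and 9.93 at 0 Gy, 10.33, 8.87 and 11.61 at 1 Gy, 8.70, 9.97 and 9.40 at 2 Gy, 9.66, 10.17 and 9.95 at 4 Gy, 10.60, 9.62 and 7.97 at 8 Gy, and 8.04, 9.18 and 8.91 at 12 Gy. The mice differed widely within a dose, and the 12 Gy mice all lay below the controls, with a log2FC of -1.85 (95% confidence interval -3.29 to -0.42). The linear dose trend, expressed as the log2 change over 12 Gy, was -1.52 (SE 0.53, adjusted *p* = 0.077). In lung the probe was well above background on 1 of 18 arrays, that of mouse 11 at 0 Gy, so no dose effect could be read there.

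*Rarb* encodes a retinoic acid receptor whose own gene responds to retinoic acid, and its values went in opposite directions in the 2 tissues. In liver it was at 9.81, 10.29 and 10.12 at 0 Gy, 9.44, 9.62 and 9.37 at 1 Gy, 9.63, 10.20 and 9.32 at 2 Gy, 9.50, 9.49 and 9.28 at 4 Gy, 9.85, 9.50 and 9.63 at 8 Gy, and 9.04, 9.50 and 9.33 at 12 Gy. Every mouse at 1, 4 and 12 Gy was below all 3 controls, and the 12 Gy log2FC was -0.78 (95% confidence interval -1.21 to -0.36). In lung it was at 10.45, 10.45 and 10.42 at 0 Gy, 10.48, 10.53 and 10.41 at 1 Gy, 10.34, 10.48 and 10.15 at 2 Gy, 10.72, 10.79 and 10.82 at 4 Gy, 10.69, 10.54 and 10.97 at 8 Gy, and 10.84, 11.51 and 11.00 at 12 Gy. Here, by this probe, every mouse at 4, 8 and 12 Gy was above all 3 controls. A second *Rarb* probe was above its lung controls (7.96 to 8.25) at 12 Gy alone (8.34 to 8.78). At 4 Gy (7.94 to 8.51) and 8 Gy (8.16 to 8.31) that probe overlapped them. The lung log2FC at 12 Gy was 0.68 (SE 0.17, adjusted *p* = 0.0102) and the trend over 12 Gy 0.68 (SE 0.14, adjusted *p* = 0.00155), both below the fold that a call requires. An adjusted *p* below 0.05 was common there, at 21.3% of all probes for 12 Gy and 30.7% for the lung trend. In liver the trend was -0.45 (SE 0.20, adjusted *p* = 0.168).

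The difference between the tissues was itself tested on the 36 arrays normalized together. The 12 Gy effect on *Rarb* was higher in lung than in liver by 1.42 (SE 0.25, 95% confidence interval 0.91 to 1.94, adjusted *p* = 0.000936), and the trend by 1.13 (SE 0.23, adjusted *p* = 0.00122). The second *Rarb* probe gave 1.06 for the 12 Gy effect (adjusted *p* = 0.00786) and 0.72 for the trend (adjusted *p* = 0.0331), the latter under the fold of a call. Another probe was well above background on 1 liver and 2 lung arrays and gives no usable value. The 12 Gy call was kept in all 36 fits that left out 1 array (1.21 to 1.57), and the trend call in 35, being lost without the 12 Gy lung array of mouse 16 (0.96). All 12 Gy lung arrays were on slide 5. Without that slide the trend difference was 0.86 and with slide as a term in the fit 0.68, neither called (adjusted *p* = 0.92 for the latter). In the lung comparisons of 2, 4, 8 and 12 Gy with 0 Gy slide and dose cannot be told apart.

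*Aldh1a2*, the retinal dehydrogenase that supplies retinoic acid in many mesenchymal and mesothelial cells, also had values that went apart between the tissues. In liver it was at 7.0, 6.96 and 6.39 at 0 Gy, 6.72, 6.50 and 6.45 at 1 Gy, 6.88, 6.78 and 7.29 at 2 Gy, 6.39, 5.75 and 5.96 at 4 Gy, 5.37, 5.83 and 6.26 at 8 Gy, and 6.17, 6.37 and 5.92 at 12 Gy. The mice at 4, 8 and 12 Gy were all below the controls, with log2FCs of -0.75, -0.96 and -0.63. The gap was narrow, as the highest levels were 6.3887 at 4 Gy and 6.3711 at 12 Gy against a lowest control of 6.3915. The liver trend was -0.83 (SE 0.26, adjusted *p* = 0.0514). In lung its level was 12.68, 13.08 and 13.05 at 0 Gy and 12.83, 13.78 and 13.52 at 12 Gy, groups that overlapped, with a trend of 0.17 (SE 0.19, adjusted *p* = 0.533). The trend was higher in lung than in liver by 1.08 (SE 0.36, adjusted *p* = 0.0376) and the 12 Gy effect by 1.16 (SE 0.38, adjusted *p* = 0.049). Neither was robust to single arrays, as the first was lost in 8 and the second in 25 of 36 fits without 1 array, and the second also in the fit with mouse number as a block (adjusted *p* = 0.0647). Mesothelial markers in liver had a summed log2 intensity of 10.02 to 10.10 at 0 Gy, 8.54 to 9.96 at 1 Gy and 9.41 to 10.07 at 2 Gy. It was 9.16 to 9.77 at 4 Gy, 9.13 to 9.49 at 8 Gy and 9.10 to 9.61 at 12 Gy. On the liver trend 0 of 6 mesothelial markers were called, and 0 had an unadjusted limma *p* below 0.05. The part of these cells in the *Aldh1a2* values was not tested.

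The fitted trend of *Cyp26a1* also differed, by 1.53 (SE 0.54, adjusted *p* = 0.0456), but with the lung probe near background on 17 of 18 arrays no difference in dose response can be read from it, and the call was lost in 17 of 36 fits without 1 array. Of the 9 genes, 3 passed the call rule on the trend difference (*Cyp26a1*, *Rarb* and *Aldh1a2*) where 7.24% of 47376 probes were. At 12 Gy 2 were called (*Rarb* and *Aldh1a2*) where 5.7% of probes were. At 1, 2, 4 and 8 Gy, where 0.00211%, 0.0549%, 0.268% and 0.929% of probes were called on the tissue difference, 0 of the 9 were. An unadjusted limma *p* below 0.05 was found for 1, 0, 2 and 3 of the 9. It was found for 1852, 2939, 3723 and 5667 of all probes (47376 tested, 47373 at 4 Gy).

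**Figure D3:**
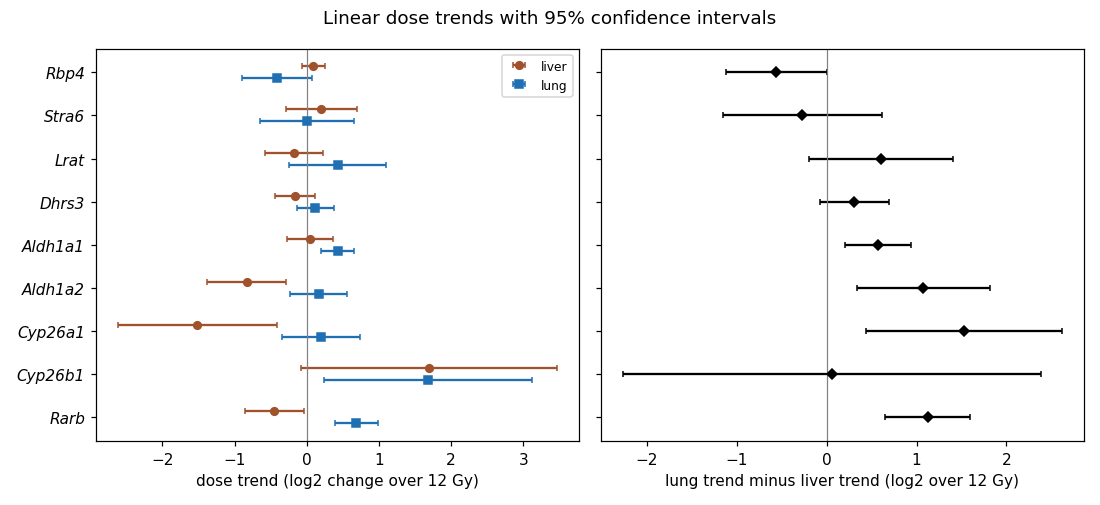
Linear dose trend of each gene as the log2 change over 12 Gy with 95% confidence intervals, in liver and in lung (left, 18 arrays each), and the lung trend minus the liver trend (right, 36 arrays). The *Rarb* interval lies below 0 in liver and above 0 in lung, and *Aldh1a2* and *Cyp26a1* lie below 0 in liver alone, while the wide *Cyp26b1* intervals include the 1 Gy arrays.

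*Aldh1a1*, another retinal dehydrogenase, had small changes. In lung it was at 16.84, 16.66 and 16.46 at 0 Gy, 17.00, 16.96 and 16.97 at 8 Gy and 17.00, 17.24 and 17.27 at 12 Gy, with no overlap between either dose and the controls. The 12 Gy log2FC of 0.51 (SE 0.13, adjusted *p* = 0.0142) and the trend of 0.43 (SE 0.11, adjusted *p* = 0.00711) passed on *p* alone. In these 2 lung comparisons 21.3% and 30.7% of all probes had an adjusted *p* below 0.05. Without slide 5 the *Aldh1a1* trend was 0.36 (adjusted *p* = 0.356). In liver its 18 levels ran from 16.12 to 17.11 with a trend of 0.05 (SE 0.15). *Dhrs3*, which reduces retinal back to retinol, varied little, from 14.01 to 14.65 in liver and 13.77 to 14.41 in lung, with trends of -0.17 (SE 0.13) and 0.12 (SE 0.12).

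*Lrat*, the enzyme that esterifies retinol for storage, was lowest at 1 Gy in both tissues by its group means. In liver it was at 8.93, 8.94 and 9.12 at 0 Gy and 8.09, 8.28 and 8.35 at 1 Gy, with no overlap (log2FC -0.76, 95% confidence interval -1.07 to -0.45). It was at 8.57, 8.84 and 8.43 at 2 Gy, 8.80, 8.82 and 8.52 at 4 Gy, 9.03, 8.57 and 8.75 at 8 Gy, and 8.50, 8.30 and 8.34 at 12 Gy, so all 3 mice at 2, 4 and 12 Gy were below the controls as well. In lung it was at 10.71, 10.11 and 10.42 at 0 Gy and 9.46, 9.18 and 9.84 at 1 Gy, with no overlap and a log2FC of -0.92 (SE 0.35) that did not pass (adjusted *p* = 0.778). The lung trend was 0.43 (SE 0.32, adjusted *p* = 0.338) and the liver trend -0.18 (SE 0.19, adjusted *p* = 0.631).

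*Rbp4*, the blood carrier of retinol that hepatocytes secrete, had a median of 18.17 and a highest level of 18.29 on the 18 liver arrays, which spanned 0.29 in all, with a trend of 0.09 (SE 0.08). In lung it ranged from 12.38 to 13.91, the widest spread being among the 4 Gy mice at 13.16, 12.38 and 13.91. The summed hepatocyte markers on the lung arrays varied too, from 10.21 to 16.36 in log2 with both ends of the 4 Gy group at 10.98 and 16.36, and their part in lung *Rbp4* was not tested. *Stra6*, the cell surface receptor for the retinol carrier, was well above background on 1 array of each tissue, both at 8 Gy, and ranged from 3.88 to 5.02 in liver and 3.61 to 5.49 in lung, so that a dose effect was not detectable.

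The counts over the 9 genes are set here beside those over all probes. In liver 0 of the 9 were called at 2, 4, 8 and 12 Gy, where 0.245%, 0.944%, 2.21% and 2.06% of probes were, and 1 (*Cyp26b1*) at 12 against 1 Gy, where 1.26% were, a count that reuses the 1 Gy arrays of the choice. In lung 0 were called at 2, 4, 8 and 12 Gy, where 0.443%, 1.46%, 2.52% and 7.32% were, and 1 (*Cyp26b1*) at 12 against 1 Gy, where 7.61% were. At these 4 doses against 0 Gy 1, 0, 2 and 2 of the 9 had an unadjusted limma *p* below 0.05. So did 3369, 6119, 7204 and 15500 of all probes (43979 tested, 43976 at 4 Gy). On the dose trends 0 of 9 were called in liver, where 2.03% of probes were, and 0 in lung, where 7.05% were. In each tissue 3 of the 9 had an unadjusted limma *p* below 0.05 on the trend. So did 8987 of 38362 probes in liver and 18188 of 43979 in lung. The median trend of the 9 was -0.17 in liver against 0.0039 for all probes, and 0.20 in lung against 0.08. The *Cyp26b1* trends themselves, 1.69 in liver and 1.68 in lung (adjusted *p* = 0.0709), were 0.42 and 0.70 without the 1 Gy arrays.

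Between unirradiated lung and liver 3 of the 9 genes were called, compared on the 36 arrays normalized together, where 35.5% of 47376 probes were, so the share among these genes was near that of all probes. *Rbp4* was at 17.85, 17.87 and 17.85 in liver and 12.84, 12.72 and 12.96 in lung, with a log2 difference of -5.02 (SE 0.25, adjusted *p* = 4.28e-16). *Cyp26a1* was at 11.18, 11.66 and 10.59 in liver and 4.14, 5.18 and 4.00 in lung, where 1 of 3 arrays was well above background, so that the lung level is not known well enough for a fold, although the fitted difference was called (adjusted *p* = 1.33e-12). *Aldh1a2* went the other way, at 7.93, 7.89 and 7.32 in liver and 12.36, 12.83 and 12.79 in lung, a difference of 4.95 (SE 0.27, adjusted *p* = 2.05e-15). The directions of these 3 genes held under every scaling tried.

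The remaining genes differed less between unirradiated tissues or depended on the scaling. *Cyp26b1* was at 9.49, 10.17 and 9.08 in liver and 10.14, 11.09 and 9.98 in lung, groups that overlapped (0.83, SE 0.45, adjusted *p* = 0.131), and the difference was 2.05 with the tissues normalized separately. For *Rarb* the difference was -0.75 (SE 0.18, adjusted *p* = 0.000666) and -1.12 on its second probe, but 0.36 with separate normalization. The difference for *Dhrs3* was -0.20 (SE 0.15, adjusted *p* = 0.278), while its second probe, for another transcript, gave -1.73 (SE 0.24, adjusted *p* = 3.97e-07). For *Aldh1a1* it was -0.21 (SE 0.14, adjusted *p* = 0.241), with -1.25 under scaling to the 75th percentile and 0.06 under separate normalization. For *Lrat* it was 0.18 (SE 0.29, adjusted *p* = 0.646), with 1.42 under separate normalization. *Stra6* was not well above background in either tissue.

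**Figure D4:**
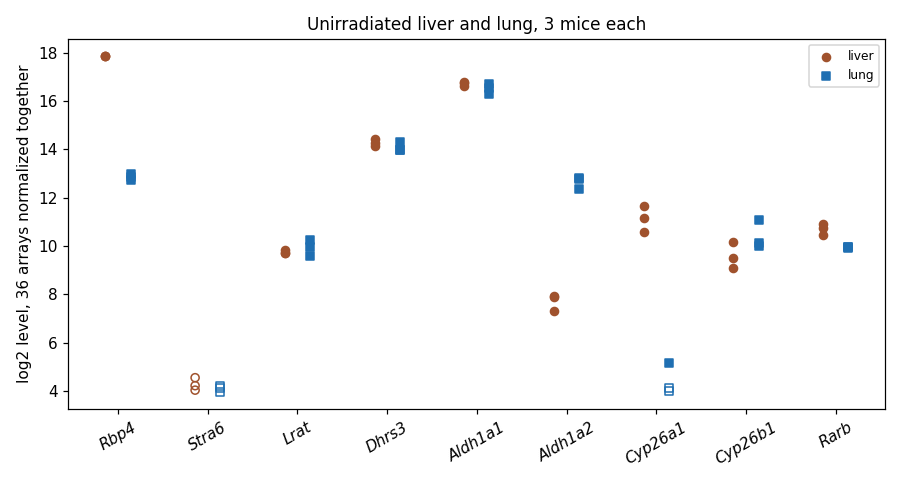
Log2 level of each gene's brightest probe in the 3 unirradiated livers and 3 unirradiated lungs, with all 36 arrays normalized together and open symbols where the probe was not well above background. Tissues are to be compared within a gene: *Rbp4* and *Cyp26a1* are lower and *Aldh1a2* is higher in lung than in liver.

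Of the other genes of the pathway, 52 had a probe: carriers and uptake (10), oxidation of retinol and carotenoids (18), retinal oxidation and retinoic acid breakdown (3), retinyl ester synthesis and hydrolysis (8), nuclear receptors (5) and genes known to respond to retinoic acid (8). In each tissue 50 were tested. These lists were chosen with earlier results of these data known, so the calls below, that of *Fabp5* among them, are not an independent test. At 1 and 2 Gy 0 were called in either tissue (7 and 8 in liver and 4 and 2 in lung at an unadjusted limma *p* below 0.05), and at 4 Gy 0 in lung (8). Of all probes 0.0339% and 0.245% were called in liver at 1 and 2 Gy. In lung 0.0227%, 0.443% and 1.46% were at 1, 2 and 4 Gy. An unadjusted *p* below 0.05 was found for 2713 and 4524 of 38362 probes in liver at 1 and 2 Gy. In lung it was found for 2427 and 3369 of 43979, and for 6119 of 43976 at 4 Gy. In liver *Fabp5*, a carrier of fatty acids and retinoic acid, was the 1 gene called at 4, 8 and 12 Gy. It was at 12.86, 13.56 and 13.36 at 0 Gy, 12.68, 13.01 and 12.78 at 1 Gy, 12.34, 12.42 and 12.52 at 2 Gy, 11.71, 11.13 and 10.76 at 4 Gy, 10.73, 10.42 and 10.91 at 8 Gy, and 10.48, 10.83 and 10.38 at 12 Gy, and lay below all 3 controls from 2 Gy on. The log2FCs at 2, 4, 8 and 12 Gy were -0.83 (not called), -2.06, -2.58 and -2.70, with a trend of -2.75 (SE 0.32, adjusted *p* = 3.15e-05). Lung *Fabp5* had a trend of -0.79 (SE 0.20, adjusted *p* = 0.00684), with the outlier spot of mouse 16 left out, and the trends differed by 1.60 (adjusted *p* = 0.00244).

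Liver trends were called for 2 further genes. *Rdh11*, a retinal reductase, fell by 1.15 over 12 Gy (SE 0.29, adjusted *p* = 0.0143), from 11.91, 12.24 and 11.93 at 0 Gy to 10.27, 11.87 and 11.34 at 12 Gy. *Aldh1a3*, a further retinal dehydrogenase, rose by 1.04 (SE 0.18, adjusted *p* = 0.00108), from 5.58, 5.55 and 5.90 to 7.10, 6.46 and 6.46, with no overlap. In lung *Scarb1*, a lipoprotein receptor that takes up carotenoids, was downregulated at 12 Gy (-1.56, adjusted *p* = 0.0115). Its 8 Gy value also passed (-1.44, adjusted *p* = 0.0493), but was lost in 15 of 18 fits without 1 array and was -0.90 without mouse 25. Its levels were 10.92 and 10.97 at 0 Gy (the spot of mouse 21 was left out), 9.98, 10.11 and 8.44 at 8 Gy, and 9.03, 9.83 and 9.30 at 12 Gy, and the trend was -1.38 (adjusted *p* = 0.00207). Among these calls the 12 Gy value of *Scarb1* was lost without mouse 11 (adjusted *p* = 0.057), and the trends of *Rdh11* without mouse 6 (-0.88) and of *Aldh1a3* without mouse 22, 25 or 6 (lowest 0.92). *Pnpla3*, a lipase that hydrolyzes retinyl esters, was downregulated in lung at 12 Gy (-1.15, adjusted *p* = 0.0137), from 8.49, 8.41 and 8.68 to 7.73, 7.23 and 7.16, a call lost without mouse 16 (adjusted *p* = 0.0502). In liver *Pnpla3* was called lower at 12 against 1 Gy (-2.25, adjusted *p* = 0.0103), where 1.26% of all probes were called. That call was kept in all 18 fits without 1 array, but the probe was not well above background on any 12 Gy liver array. *Lpl*, which clears lipids and retinyl esters from blood lipoproteins, had an upward trend in lung of 1.07 (adjusted *p* = 0.000472), from 14.03, 14.06 and 14.81 to 15.28, 15.02 and 15.43, with a value of 1.00 without mouse 26 that was no longer called. All lung arrays at 12 Gy and that of mouse 25 at 8 Gy were on slide 5. Slide and dose cannot be told apart in the 12 Gy lung calls, and the lung trends of the pathway genes were not fitted without that slide.

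**Figure D5:**
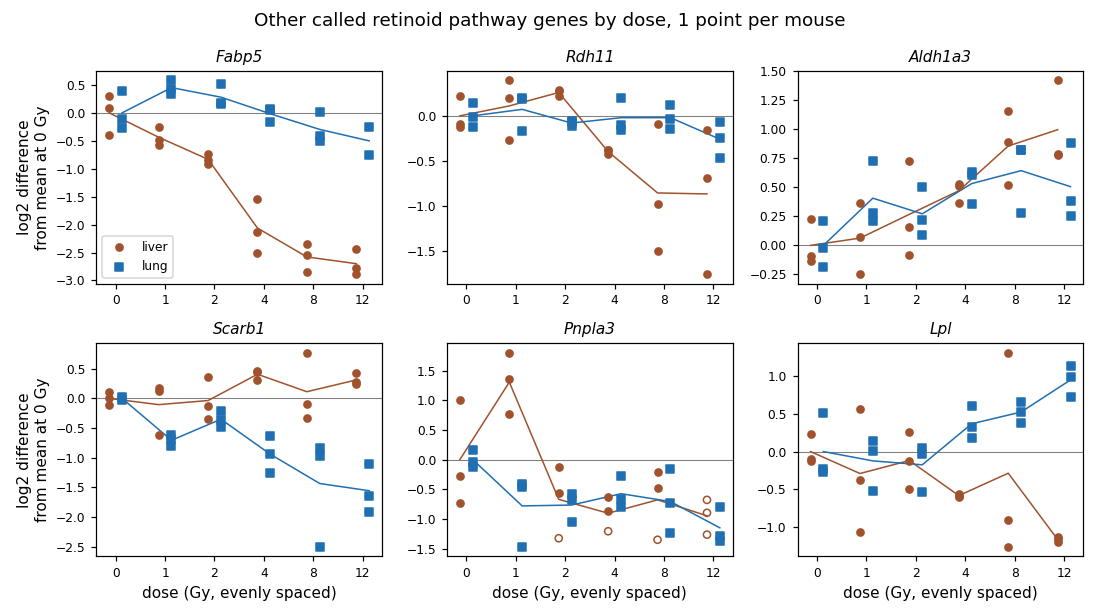
The 6 other retinoid pathway genes called at a dose or on a trend, as the log2 difference from the mean of the 0 Gy mice of the same tissue by dose in Gy (evenly spaced), 1 point per mouse, with lines through group means and open symbols where a probe was not well above background. All 3 livers lie below the 0 Gy mice in *Fabp5* from 2 Gy on, and all 3 lungs at 12 Gy lie below them in *Scarb1* and above them in *Lpl*.

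In lung these came to 0 of 50 upregulated and 1 downregulated at 8 Gy (2.52% of all probes were called), 0 and 2 at 12 Gy (7.32%), and 1 and 1 on the trend (7.05%), and in liver to 0 and 1 at 4, 8 and 12 Gy (0.944%, 2.21% and 2.06%) and 1 and 2 on the trend (2.03%). On the trend difference 3 of 52 were called higher in lung (*Fabp5*, *Lpl* and *Rxrg*, a retinoid X receptor, 1.07) and 2 lower (*Scarb1* and *Hoxa5*, a homeobox gene, -1.16), where 7.24% of all probes were called. Between unirradiated tissues, where 35.5% of all probes were called and 17.3% lower in lung, 10 of 52 were higher and 24 lower in lung, and 15 of those 24 were genes of retinol and carotenoid oxidation, where 15 of 18 were lower and 0 higher. Markers of other cells moved with dose beside these. In lung 7 of 8 B cell, 3 of 5 erythroid and 3 of 8 neutrophil markers were called lower on the trend. In liver 3 of 8 B cell markers were called lower on the trend and 4 of 8 at 12 Gy. On adjusted *p* alone 5 of 7 sinusoidal endothelial and 4 of 6 Kupffer cell markers passed for the liver trend, where 9.5% of all probes did (median changes over 12 Gy of -0.63 and -0.52). Of these endothelial markers 1 was called higher and 0 lower, and of the Kupffer cell markers 0 were called. Their part in the results was not tested.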

How the data were processed

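Liver and lung RNA was hybridized to 1-color Agilent mouse 8x60K arrays. The authors deposited the scanner output of Agilent Feature Extraction 11.5.1.1, in which a spot and the background around it each have a median pixel intensity, not normalized between arrays. They also deposited linear series intensity values, with each array's 75th percentile near 1, whose procedure is not given in the sources used here and which served as an alternative. Columns of samples that could not be mapped numbered 0. miRNA arrays were not used here.

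Median intensities were corrected by normexp (offset 0), control spots dropped, outlier spots set to missing, arrays quantile-normalized within a tissue (all 36 for tissue comparisons), and log2 values averaged per probe, with limma 3.58.1 (R 4.3.3). Versions 1.17.8 of the data.table package and 1.5.0 of statmod were used, and Python 3.11.15 with matplotlib 3.10.9 drew the plots. A probe counted as well above background where at least 0.5 of its spots were, and was tested if so on at least 1 array. Dose groups and linear trends (given over 12 Gy) were fitted with limma's lmFit and eBayes, with Benjamini-Hochberg adjustment over all tested probes. All adjusted *p* values are from limma, and intervals have 95% confidence. With 3 arrays a group their number limits the precision. The code was tested on simulated data.

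Probes were named through RefSeq accessions of build GRCm38.p6, and probes with other accessions stayed unnamed. Each gene is given by its brightest probe, and other probes where their call or direction differs. Other pathway genes called at a dose or on a trend are named, those called only on a tissue difference were named after their values were seen, and the rest are counted. The 9 genes, the pathway lists and the marker lists (hepatocyte, stellate, sinusoidal endothelial, Kupffer, mesothelial, alveolar type 2, club, lung fibroblast, lung endothelial, B cell, erythroid, neutrophil) were chosen with earlier results of these data known. Likeness was Pearson's *r* over 18 arrays among genes well above background on at least 9.

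Mouse numbers are shared by liver and lung, and the study's text gives 3 animals per dose, so that equal numbers were taken as the same mouse, though the labels do not say so. Over all probes the deviations of liver and lung arrays with the same number correlated at -0.127 to 0.209, with 2 of 18 above 0.1 and 3 of 18 best matched by their own number. Alternatives were another offset, scaling, signal, probe filter and slide term, a block for mouse number, and leaving out each array. Leaving out slide 5 or the 1 Gy arrays, and single arrays for the pathway genes, was chosen after seeing the data.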

Additional observations from a re-analysis of the deposited data

Results flagged for a closer look

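A test of the difference between lung and liver on 36 arrays passed the call rule for 3 genes. For *Rarb* the 12 Gy effect was higher in lung by 1.42 and the trend over 12 Gy by 1.13 on the log2 scale (limma adjusted *p* = 0.000936 and 0.00122). For *Aldh1a2* these were 1.16 and 1.08 (adjusted *p* = 0.049 and 0.0376), and the 12 Gy call was lost with mouse number as a block (adjusted *p* = 0.0647) and in 25 of 36 fits without 1 array, and the trend call in 8 of 36. For *Cyp26a1* the fitted trends differed by 1.53 (adjusted *p* = 0.0456), from which no difference in dose response can be read because the lung probe was near background. None of the 3 trend differences was called with slide as a fixed term or without slide 5. Groups held 3 mice, so single mice were not screened as outliers.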

How the results depend on the processing

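Of 6494 values of the 9 genes recomputed under alternatives, 6370 kept their direction and side of the threshold, 89 lost and 33 gained a call, 2 called values changed sign, and 197 values that were not called changed sign. Both sign changes came from a *Rarb* probe near background, with -0.52 for the tissue difference at 12 Gy and -0.37 for that of the trends. The number of genes called in unirradiated lung against liver was 3, against 6 with 75th percentile scaling, 5 with the processed signal, 6 with the authors' series values and 5 with tissues normalized separately. The number called at 1 or more doses in liver was 1, against 2 with the processed signal, 2 with the series values, 0 with all probes tested, 3 with tissues fitted together, 0 with slide as a fixed term, 2 with slide as a random block and 0 within slide 1; in lung it was 1, against 0 within slide 3. On the liver trend 0 became 1 with tissues fitted together. On the trend difference 3 became 0 with slide as a fixed term, 1 with slide as a random block, and, chosen after seeing the data, 0 without slide 5 and 1 without the 1 Gy arrays. The causes of these changes were not tested. The liver *Cyp26b1* value at 1 Gy lost its call in 13 of 18 fits without 1 array. Leaving out 1 array gave 0 to 2 genes at a dose and 0 to 1 on the trend in liver, 1 and 0 to 1 in lung, 0 to 3 on the trend difference, and 3 between unirradiated tissues.

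With mouse number as a replicate block, 3 genes were called on the trend difference and 3 between unirradiated tissues, as without it. The 12 Gy difference of *Aldh1a2* (1.16) lost its call (adjusted *p* = 0.0647) and no other call of the 9 genes changed.

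Scaling moved all probes. Lung minus liver without irradiation had a median of -0.05 over all probes, against -0.56 with 75th percentile scaling and 0.73 with tissues normalized separately, and 51.5% of calls were higher in lung, against 32.6% and 86.3%. For the lung trend 38.3% of calls were upward, against 56.6% with 75th percentile scaling and 26.3% with the series values, and for the trend difference 49.2%, against 35.6% with the processed signal and 29.5% with the series values. Slide as a fixed term could not be fitted for each dose in lung, and within-slide fits were not run for trends or tissue comparisons. *Stra6*, and *Cyp26a1* in lung, were too close to background for a change to be detectable.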
